A study of Mus musculus with 10 samples.

Results

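The mitochondrial genome of the mouse is a small circle that encodes 2 ribosomal RNAs (rRNAs), the tRNAs that read its own genetic code, and the mRNAs of 13 proteins of the respiratory chain. It was followed here through every row of the deposited count table whose gene name starts with mt-. The 34 rows found, of 36115 in the table, comprise 2 rRNAs, 19 tRNAs and 13 mRNAs, and all 34 have the same coordinates in GENCODE M21 on GRCm38. The annotation holds 37 genes on this chromosome, and mt-Ts1, mt-Td and mt-Tk were not analysed here. The libraries are bulk RNA sequencing of retinas from untreated mice aged 3 months on a C57BL/6 background. W1 to W5 name the 5 wild-type libraries. The 5 libraries with the genotype label B6.129S2-Il6tm1Kopf/J, a constitutive disruption of the interleukin-6 gene Il6, are called K1 to K5. The libraries were read from both ends, 100 bases each. The numbers only name the libraries. The labels do not say whether each library is a separate animal, so the tests measure the spread between libraries, which may be partly technical.

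Both strands of the mitochondrial genome are transcribed as long precursors that span many genes. Most rRNAs and mRNAs are flanked by tRNAs, and cutting the tRNAs out of the precursor frees the molecules between them. Mitochondrial mRNAs receive short poly(A) tails, the rRNAs shorter ones, and mature tRNAs receive the letters CCA. In the retina, mitochondria are packed into the inner segments of photoreceptors, which are among the most energy-demanding cells of the body.

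Total counts ran from 30433373 to 38857374 per library. Rod markers defined the tissue, and their summed level over 10 genes ran from 60425 to 76794 CPM (reads scaled to library size with TMM factors) in wild type and from 55179 to 77781 CPM in the libraries labelled knockout. Markers of lens stayed at 0.592 to 1.17 CPM and of striated muscle at 7.68 to 22.7 CPM, while pigment epithelium markers varied from 39.8 to 516.5 CPM among wild-type libraries, against 220.8 to 400.9 CPM among those labelled knockout. Il6 itself went against the labels, with 0, 0, 1, 1 and 1 counts over W1 to W5, compared with 3, 3, 5, 7 and 4 counts over K1 to K5 (exact two-sided permutation p = 0.00794, the smallest that 252 splits allow). The count covers the whole gene and does not separate a disrupted part, and directions below are those of the libraries as labelled. The labels give no litter, sex or batch, and a litter effect cannot be told apart from the genotype. The second index sequence in the label of K5 is not the one that W1 to K4 share.

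The rRNA and tRNA rows on which the results turn lie in 2 stretches. The first stretch holds mt-Rnr1, the 12S rRNA of the small mitochondrial ribosomal subunit (chrM:70-1024, plus strand), and mt-Rnr2, the 16S rRNA of the large subunit (chrM:1094-2675, plus strand). It ends with mt-Tl1 (chrM:2676-2750, plus strand), a leucine tRNA that abuts mt-Rnr2 on one side and mt-Nd1 on the other with gaps of 0 bases. The second stretch holds 4 tRNAs on the minus strand just ahead of mt-Co1, namely mt-Ta for alanine (chrM:5018-5086), mt-Tn for asparagine (chrM:5089-5159), mt-Tc for cysteine (chrM:5192-5257) and mt-Ty for tyrosine (chrM:5260-5326). A spacer of 32 bases parts mt-Tn from mt-Tc, and mt-Ty ends 1 base from mt-Co1. The 5 tRNAs are shown, from the GENCODE transcripts, because they are the tRNA rows that came nearest to, or passed, the test between groups. They are given 5′ to 3′ on the strand of the gene, with the anticodon in capitals.
mt-Tl1: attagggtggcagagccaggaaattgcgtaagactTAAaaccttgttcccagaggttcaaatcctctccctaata
mt-Ta: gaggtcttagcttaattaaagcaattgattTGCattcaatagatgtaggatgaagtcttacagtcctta
mt-Tn: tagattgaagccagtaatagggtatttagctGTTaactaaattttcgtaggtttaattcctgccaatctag
mt-Tc: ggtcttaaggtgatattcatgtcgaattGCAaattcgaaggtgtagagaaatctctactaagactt
mt-Ty: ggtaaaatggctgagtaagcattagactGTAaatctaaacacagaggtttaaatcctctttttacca
The tRNA rows are 59 to 75 bases long, shorter than the reads of 100 bases. The files do not tell whether a read counted to a tRNA came from the mature tRNA or from a precursor that runs on into its neighbours.

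Of the 3 classes, the rRNAs and the tRNAs stood higher in every library labelled knockout, and the mRNAs overlapped. The summed rRNA level was 2961, 3126, 3197, 2372 and 2793 CPM over W1 to W5, compared with 4089, 4779, 3901, 5056 and 3948 CPM over K1 to K5. The lowest library labelled knockout was K3, above the highest wild-type library W3, and the ratio of the group means was 1.51. The summed tRNA level ran from 39.8 to 48.5 CPM among wild-type libraries, against 50.5 to 73.5 CPM among those labelled knockout, again without overlap, with a ratio of means of 1.33. The mRNA sum was 30439 ± 4280 CPM and 34034 ± 4694 CPM (SD, n = 5), and its groups overlapped, from 25821 to 36152 CPM and from 29443 to 40184 CPM. In bulk samples, fewer cells of a type and less RNA per cell cannot be told apart. These sums describe members chosen with earlier results known and carry no test.

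**Figure D1:**
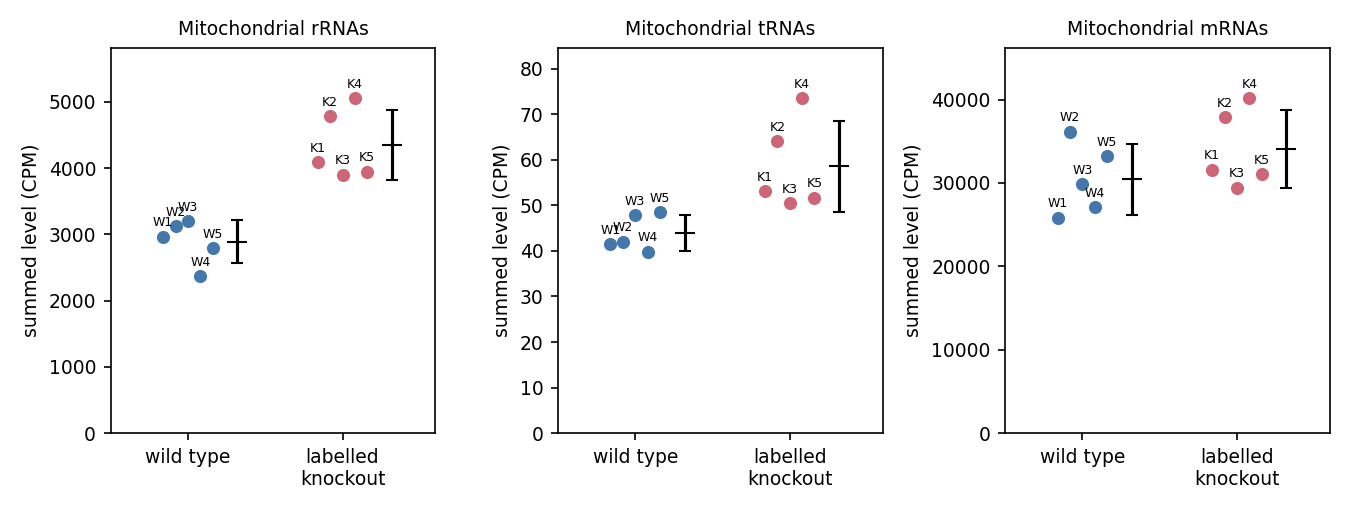
Summed level in CPM (vertical axis, from 0) of mitochondrial rRNAs, tRNAs and mRNAs in each of the 10 libraries, with the mean ± SD of each group in black. The rRNA and tRNA sums of K1 to K5 lie above those of W1 to W5, while the mRNA sums overlap, 25821 to 36152 CPM against 29443 to 40184 CPM.

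Both rRNAs rose. The 12S rRNA mt-Rnr1 stood at 559, 568, 647, 431 and 477 CPM over W1 to W5, compared with 730.4, 791, 649, 976 and 708 CPM over K1 to K5. The groups did not overlap, but W3 and K3, at 647 and 649 CPM, nearly met. Its log2 fold change was 0.52 ± 0.12 (SE, n = 5 per group), a fold of 1.44, with an edgeR adjusted p of 0.0375. The 16S rRNA mt-Rnr2 stood at 2402, 2557, 2549.9, 1940.4 and 2316 CPM over W1 to W5, compared with 3358, 3988, 3252, 4080.0 and 3240.0 CPM over K1 to K5. Here the lowest library labelled knockout stood clear of the highest wild-type library. Its log2 fold change was 0.61 ± 0.11 (SE), a fold of 1.52, with an edgeR adjusted p of 0.00537. Leaving out W1, W4, W5, K2, K4 or K5 ended the call of mt-Rnr1 (adjusted p 0.0598 to 0.108), and leaving out W5 and K5 together did so as well (0.111), whereas mt-Rnr2 was called under all 18 alternatives (3.57e-07 to 0.0242).

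Among the tRNAs, 14 of 16 tested had a positive log2 fold change, where 50.4% of all tested genes have one. Only 1 was called higher, against 0.859% of all tested genes. It was mt-Tc, the cysteine tRNA, at 1.97, 1.85, 2.96, 1.77 and 2.22 CPM over W1 to W5, compared with 3.46, 4.85, 3.03, 4.29 and 3.14 CPM over K1 to K5. The groups did not overlap, and W3 and K3 again lay closest. The log2 fold change was 0.80 ± 0.19 (SE, n = 5 per group) with an edgeR adjusted p of 0.0451. This row rests on 60 to 172 reads per library, and leaving out any library except W3 ended its call (adjusted p 0.0532 to 0.131), as did leaving out W5 and K5 together (0.0918).

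Over all classes, 3 of 31 tested members were called higher and 0 lower, against 2.03% of the 18965 tested genes called in either direction and 0.859% called higher. Of the 28 members that did not pass, none had an edgeR adjusted p below 0.104. The low-count filter left out 3 of the 34 members, the tRNAs mt-Tf (phenylalanine), mt-Tv (valine) and mt-Tt (threonine), which had at most 17 reads in any library. A positive log2 fold change was found in 28 of the 31, where 50.4% of all tested genes have one. An unadjusted edgeR p below 0.05 with a higher level was found for 13 members, where the share over all tested genes is 6.78%. The members are cut from shared precursors and depend on the total of mitochondrial reads, so they are not independent. These counts therefore carry no test. The summed level of all members overlapped, from 28824 to 39320 CPM in wild type and from 33395 to 45314 CPM in the libraries labelled knockout. In the authors' deposited table, 6 members have an adjusted p under 0.05, all with positive log2 fold changes, where 3.37% of genes with a deposited adjusted p reach that threshold. They are mt-Rnr1, mt-Rnr2, mt-Tc, mt-Ty, mt-Tn and mt-Tl1, and the deposited log2 fold change and adjusted p for mt-Rnr2 are 0.55 and 3.32e-07. The authors' deposited table marks none of the members as significant. DESeq2 run on the counts called 6 members, the same 6 names, where it called 3.16% of 24176 genes.

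Of the 4 minus-strand tRNAs just ahead of mt-Co1, only mt-Tc passed the test. The other 3 had log2 fold changes of 0.66 ± 0.21 for mt-Ta, 0.57 ± 0.18 for mt-Tn and 0.86 ± 0.25 for mt-Ty (SE), and their adjusted p by edgeR came to 0.149, 0.128 and 0.104. The groups did not overlap for mt-Ta, at 0.899 to 1.92 CPM among wild-type libraries, against 2.02 to 2.91 CPM among those labelled knockout, and overlapped for mt-Tn and mt-Ty. Together the 4 rows held 258 to 355 reads in wild-type libraries and 361 to 595 reads in libraries labelled knockout. Groups without overlap were found for 4 members (mt-Rnr1, mt-Rnr2, mt-Ta and mt-Tc), each with the libraries labelled knockout above, where groups failed to overlap in 3.48% of tested genes and in this direction in 1.76%.

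By strand, the 7 minus-strand tRNAs tested had a median log2 fold change of 0.57, and the 9 plus-strand tRNAs tested one of 0.34. Over all tested genes the median was 0.0018. Summed over the rows of a strand, the levels differed by nearly the same ratio of means, 1.35 on the minus strand and 1.30 on the plus strand. The minus strand gave 67.2% ± 2.37 of the tRNA reads among wild-type libraries, against 67.6% ± 2.96 among those labelled knockout (SD, n = 5), with overlapping groups. The tRNA row with the highest level per length was mt-Tp, at 257 ± 44.9 CPM per kilobase (SD over 10 libraries). This is the proline tRNA on the minus strand at the end of the gene order. Next came mt-Tl1 at 104.5 ± 30.0 and mt-Te, a glutamate tRNA on the minus strand, at 86.8 ± 25.1 CPM per kilobase. Every tRNA row is shorter than a read, so this ranking orders reads counted to a row and not amounts of mature tRNA. Of these 3 rows, mt-Tp abuts mt-Tt with a gap of 0 bases and has no annotated gene on its other side. Genes abut mt-Tl1 on both sides, and mt-Te abuts mt-Nd6 with a gap of 0 bases. The part of read assignment in the ranking was not tested. Between the groups, mt-Tp stood at 14.9, 12.7, 17.0, 16.6 and 17.6 CPM over W1 to W5, compared with 17.2, 22.6, 15.8, 22.02 and 15.996 CPM over K1 to K5. These ranges overlap, and its log2 fold change was 0.25 ± 0.12 (SE) with an edgeR adjusted p of 0.399.

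The leucine tRNA mt-Tl1 stood at 5.03, 6.74, 5.26, 5.87 and 8.94 CPM over W1 to W5, compared with 8.14, 10.2, 8.91, 11.998 and 7.22 CPM over K1 to K5. W5 was the wild-type library within the range of the other group. The log2 fold change of mt-Tl1, 0.55 ± 0.17 (SE), had an edgeR adjusted p of 0.141, and of 0.0315 when W5 was left out. Leaving out any other single library gave an edgeR adjusted p of 0.121 to 0.366. The glutamate tRNA mt-Te stood at 4.58, 6.03, 4.73, 4.25 and 5.39 CPM over W1 to W5, compared with 5.99, 6.63, 6.40, 10.4 and 5.55 CPM over K1 to K5, with a log2 fold change of 0.49 ± 0.17 (SE) and an edgeR adjusted p of 0.202. Here K4 stood apart from the other libraries of its group. The remaining tRNAs tested, each at 0.0618 to 3.52 CPM in every library, had log2 fold changes from -0.36 for the histidine tRNA mt-Th to 0.51 for the glutamine tRNA mt-Tq. No source used here states how strand was handled, so reads of a minus-strand tRNA and of a precursor of the opposite strand cannot be told apart.

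**Figure D2:**
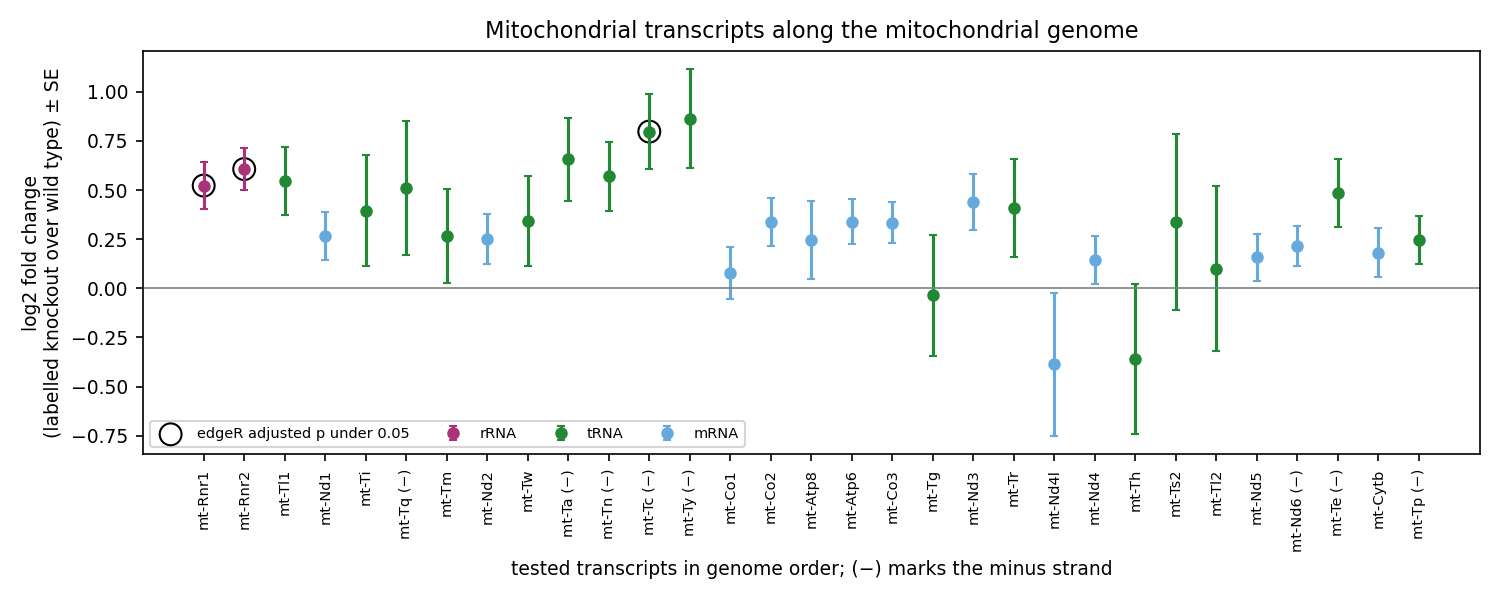
Log2 fold change (labelled knockout over wild type) with its SE for the 31 tested transcripts, ordered as they lie on the mitochondrial genome and coloured by class, with circles around those with an edgeR adjusted p under 0.05. The circles mark mt-Rnr1, mt-Rnr2 and mt-Tc at 0.52, 0.61 and 0.80, and the mRNAs lie from -0.39 to 0.44.

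None of the 13 mRNAs passed the test. edgeR, limma-voom and DESeq2 each called 0, and edgeR fitted without a low-count filter called 1, mt-Nd3, at an adjusted p of 0.0499. Leaving out W2 let edgeR call mt-Co3. Before adjustment, 5 mRNAs (mt-Nd1, mt-Co2, mt-Atp6, mt-Co3 and mt-Nd3) had an edgeR p below 0.05, against 13.8% of all tested genes. Of the 7 subunits of complex I (NADH dehydrogenase), 6 had a positive log2 fold change, from 0.14 for mt-Nd4 to 0.44 for mt-Nd3. The exception was mt-Nd4l at -0.39, which rests on W5 and is positive without it. The complex III subunit mt-Cytb (cytochrome b) had a log2 fold change of 0.18 ± 0.12 (SE). The complex IV (cytochrome c oxidase) subunits mt-Co1, mt-Co2 and mt-Co3 had 0.08, 0.34 and 0.33, and the complex V (ATP synthase) subunits mt-Atp6 and mt-Atp8 had 0.34 and 0.25. Adjusted p over the 13 mRNAs ran from 0.136 to 0.855.

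The most abundant mRNAs per length were mt-Co1, mt-Cytb and mt-Nd1. The catalytic subunit of cytochrome c oxidase, mt-Co1, stood at 8800.3, 12927, 9745, 9641 and 10219.5 CPM over W1 to W5, compared with 9963, 13119.5, 9158, 12336 and 9602 CPM over K1 to K5. W2, K2 and K4 were the high libraries, and the groups covered nearly the same range. For mt-Cytb the values were 6065, 8494, 6982, 6367 and 8170.2 CPM among wild-type libraries, against 7558, 9067, 7063, 9591 and 7597 CPM among those labelled knockout. For mt-Nd1, the gene downstream of the rRNAs on the same strand, they were 3408, 4638, 4107, 3522 and 4568 CPM and 4485, 5363, 4279, 5845 and 4342 CPM. The highest wild-type values of mt-Nd1 lay within the range of the libraries labelled knockout, and its log2 fold change of 0.26 ± 0.12 (SE) had an edgeR adjusted p of 0.353. The ratio of mt-Nd1 to mt-Rnr2 reads, 2 products of the same strand parted by mt-Tl1, was 1.42 to 1.97 among wild-type libraries, against 1.32 to 1.43 among those labelled knockout.

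Expressed as shares of all mitochondrial reads, the rRNAs and tRNAs lay higher and the mRNAs lower in the libraries labelled knockout. All mt- rows together took 2.98% to 3.84% of the reads among wild-type libraries, against 3.38% to 4.44% among those labelled knockout. The rRNAs made up 10.3%, 7.95%, 9.65%, 8.04% and 7.74% of the mitochondrial reads over W1 to W5, compared with 11.4%, 11.2%, 11.7%, 11.2% and 11.3% over K1 to K5. The libraries labelled knockout were close together and above all wild-type libraries, among which W1 and W3 stood highest. The mRNAs made up 89.6% to 92.1% among wild-type libraries, against 88.2% to 88.7% among those labelled knockout. The class shares add up to all mitochondrial reads, so the lower mRNA share mirrors the higher rRNA share and is not a separate result. The summed mRNA level itself was not lower. The tRNAs made up 0.107% to 0.144% and 0.147% to 0.162%.

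The same contrast appears within each library as a ratio of classes. For every 100 mRNA reads there were 11.5, 8.65, 10.7, 8.75 and 8.40 rRNA reads over W1 to W5, compared with 12.9, 12.6, 13.3, 12.6 and 12.7 over K1 to K5. W1 and W3 thus stood between the other wild-type libraries and the libraries labelled knockout. For every 1000 mRNA reads there were 1.16 to 1.61 tRNA reads among wild-type libraries, against 1.66 to 1.83 among those labelled knockout. The balance between the 2 rRNAs did not separate the groups, with 3.94 to 4.86 mt-Rnr2 reads for each mt-Rnr1 read among wild-type libraries, against 4.18 to 5.04 among those labelled knockout.

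**Figure D3:**
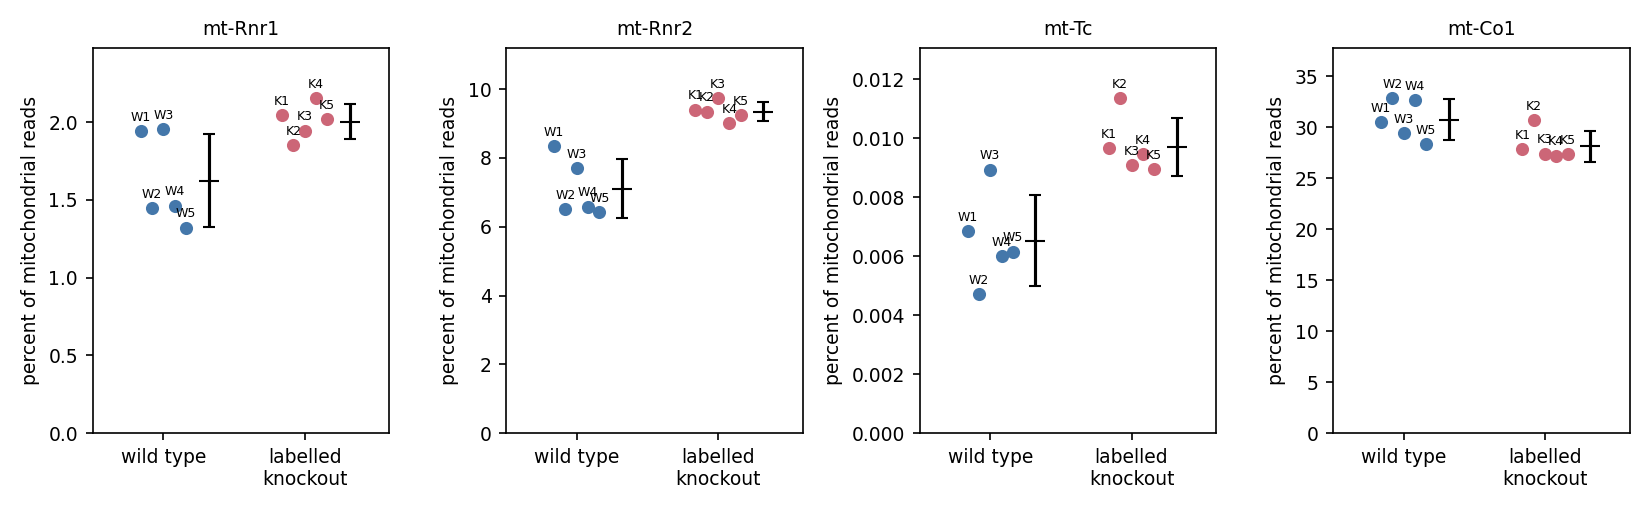
Percent of all mitochondrial reads (vertical axes, from 0) taken by mt-Rnr1, mt-Rnr2, mt-Tc and mt-Co1 in each library, with the mean ± SD of each group in black. For mt-Rnr2 the libraries labelled knockout span 9.004% to 9.74% and the wild-type libraries 6.42% to 8.33%, and for mt-Co1 the groups overlap.

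Tested as shares, with the library size set to the mitochondrial reads and p-values adjusted over all 18965 genes, no member was called by edgeR or limma-voom. edgeR called 1.51% of all genes in this fit. DESeq2 called 1 member, mt-Rnr2 (adjusted p 0.0371), where it called 2.7% of genes. This scaling moves the median log2 fold change of all genes to -0.20. The share of mt-Rnr2 was 7.11% ± 0.862 among wild-type libraries, against 9.34% ± 0.267 among those labelled knockout (SD, n = 5), a log2 difference of 0.39 ± 0.11 (SE) with an edgeR adjusted p of 0.0765. For mt-Rnr1 the shares were 1.62% ± 0.299 and 2.002% ± 0.113, with a log2 difference of 0.30 ± 0.13 (SE) and an edgeR adjusted p of 0.241. Before adjustment, 4 of 31 members (mt-Rnr1, mt-Rnr2, mt-Tc and mt-Ty) had an edgeR p below 0.05 in this fit, against 18% of all genes in either direction. All 4 had higher shares, against 1.49% of all genes in that direction. The scaling lowers most genes, so the 1.49% is small by construction and says nothing about the members. The largest single share, that of mt-Co1, was 30.8% ± 1.996 and 28.1% ± 1.47, a log2 difference of -0.13 ± 0.10 (SE) with an edgeR adjusted p of 0.421.

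The levels of the mRNAs per length lay in 2 separate ranges, and the lower one is a run of neighbouring genes. Over the 10 libraries, mt-Co1 stood at 6829 ± 1041, mt-Cytb at 6727 ± 997 and mt-Nd1 at 4656 ± 774 CPM per kilobase (SD). The order of mt-Co1 and mt-Cytb was not fixed, since mt-Co1 was the higher in 5 of 10 libraries, while mt-Cytb was above mt-Nd1 in all 10. Next came mt-Nd2, mt-Nd6, mt-Nd5 and mt-Nd4 at 2463, 2388, 1899 and 1541 CPM per kilobase. Among the mRNAs, mt-Nd6 alone lies on the minus strand. Strand handling is not stated, so its reads cannot be told apart from those of a precursor of the opposite strand. The remaining 6 mRNAs, mt-Nd3, mt-Co2, mt-Co3, mt-Atp6, mt-Atp8 and mt-Nd4l, lay at 24.7 to 66.2 CPM per kilobase. These 6 are adjacent mRNAs, running from mt-Co2 to mt-Nd4l, and are cut from the same strand as their abundant neighbours mt-Co1 and mt-Nd4.

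The low stretch coincides with sequence that the mitochondrial genome shares with chromosome 1. The annotation lists 7 unprocessed pseudogenes at chr1:24611535-24616197 (GRCm38, minus strand), which are nuclear copies of mitochondrial DNA, in the same order as their mitochondrial counterparts. Of the windows of 100 bases, the read length, in the mRNAs mt-Co2, mt-Atp6, mt-Co3, mt-Nd3 and mt-Nd4l, 97.6% to 99.9% occur letter for letter in an annotated transcript of a nuclear gene. In mt-Nd4 the share was 60.8%, in mt-Co1 30.8%, in mt-Nd2 3.2%, and in mt-Cytb, mt-Nd1, mt-Nd5, mt-Nd6 and both rRNAs 0%. The first 100 bases of mt-Co2 (chrM:7013-7112, plus strand) and of its copy Gm28661 (chr1:24615466-24615565, minus strand) show how far a read could match both places, with no letter in capitals because none differs.
mt-Co2: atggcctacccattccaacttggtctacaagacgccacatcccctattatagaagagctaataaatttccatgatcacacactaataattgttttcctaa
Gm28661: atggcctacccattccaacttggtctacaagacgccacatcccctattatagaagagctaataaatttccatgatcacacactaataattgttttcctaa
The edge of the shared stretch lies inside mt-Co1. There the aligned 483 bases differ from Gm29216 at 1 base, A1066T, counted from base 1 of mt-Co1 with the mitochondrial base first, and it is the letter in capitals in mt-Co1 (chrM:6390-6437) and Gm29216 (chr1:24616141-24616188).
mt-Co1: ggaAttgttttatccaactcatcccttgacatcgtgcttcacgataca
Gm29216: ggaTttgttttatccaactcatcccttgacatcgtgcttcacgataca
No source used here states how reads with several matches were counted. The levels of mt-Co2, mt-Atp6, mt-Co3, mt-Nd3, mt-Nd4l and the part of mt-Nd4 and mt-Co1 that is shared are therefore uncertain. For mt-Atp8 no shared window was found among annotated transcripts, but it lies opposite a gap of 233 bases between the pseudogenes Gm10925 and Gm28661, whose genomic sequence was not used here.

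**Figure D4:**
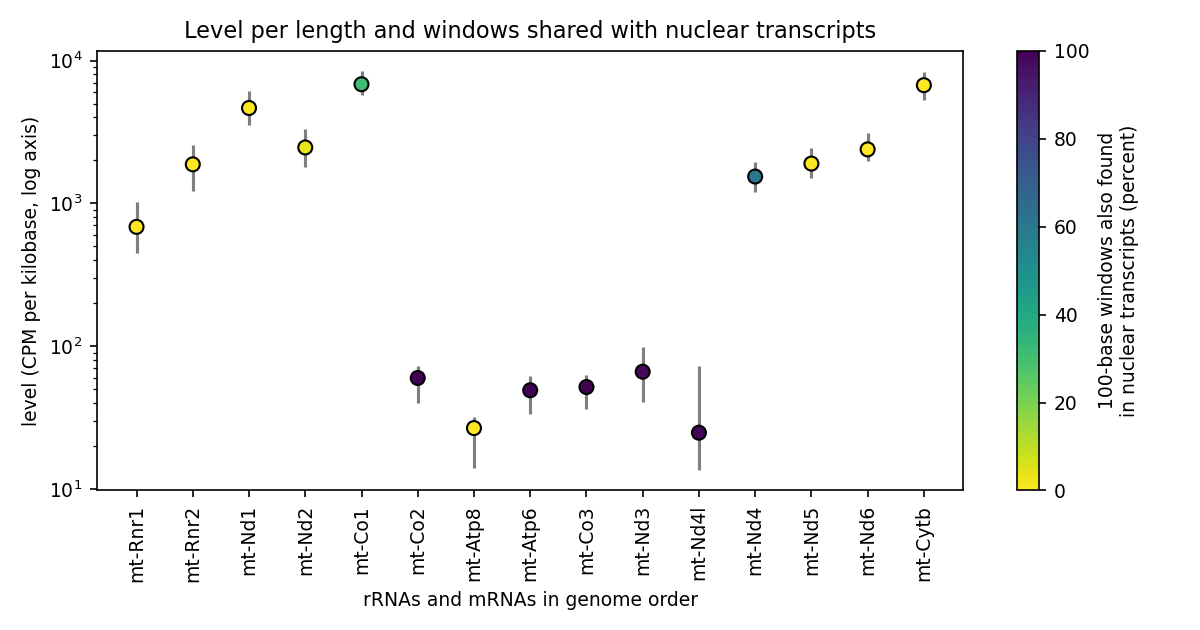
Mean level in CPM per kilobase (log axis) of the rRNAs and mRNAs in genome order over 10 libraries, with lines from the lowest to the highest library and colour for the percent of 100-base windows that also occur in nuclear transcripts. The 6 transcripts from mt-Co2 to mt-Nd4l lie at 24.7 to 66.2 CPM per kilobase, and 5 of them share over 90% of their windows.

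Reads were also counted to the copies themselves. The copies Gm28661, Gm10925 and Gm28437 of mt-Co2, mt-Atp6 and mt-Co3 held 7993, 9959 and 10981 reads over the 10 libraries, beside 14342, 11692 and 14188 reads in the mitochondrial rows. Member and copy together came to 93.2, 90.8 and 91.7 CPM per kilobase for these 3 pairs. If reads with several matches were left out of both places, these sums miss them too, so they say nothing about the source of the low levels. The 7 copies summed to 109 to 157 CPM among wild-type libraries, against 140 to 170 CPM among those labelled knockout, and 0 of the 7 were called by edgeR, where 2.03% of all tested genes were. Of the 7, 5 were higher with an unadjusted p below 0.05, which 6.78% of all tested genes reach in that direction. Their log2 fold changes, from 0.22 to 0.34, and those of the 3 mitochondrial rows, 0.33 to 0.34, cannot be told apart by source, since the reads could belong to either place.

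One row of the shared stretch stood apart in 1 library. The complex I subunit mt-Nd4l had 5.38, 6.09, 4.84, 3.995 and 21.4 CPM over W1 to W5, compared with 6.10, 6.12, 7.27, 6.54 and 5.78 CPM over K1 to K5. W5 was thus far above all others, while its neighbour mt-Nd4 and the copy Gm10222 were within the range of the other libraries in W5. With all libraries the log2 fold change of mt-Nd4l was -0.39 ± 0.36 (SE, edgeR adjusted p 0.705), and without W5 it was 0.33 ± 0.15 (edgeR adjusted p 0.390).

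Genes that copy, transcribe and process the mitochondrial genome are encoded in the nucleus. Of 63 tested, 1 was called higher and 0 lower, against 2.03% of all tested genes called. It was Polg2, the accessory subunit of the mitochondrial DNA polymerase, at 35.4, 41.2, 42.2, 38.8 and 37.9 CPM over W1 to W5, compared with 55.7, 50.3, 45.4, 46.3 and 44.9 CPM over K1 to K5. The groups did not overlap, and the log2 fold change was 0.31 ± 0.08 (SE) with an edgeR adjusted p of 0.0478. The call was lost without any library except W2, without W5 and K5 together, and with limma-voom. The median log2 fold change of the 63 genes was 0.02, and 6 had an unadjusted edgeR p under 0.05, below the 13.8% of all genes.

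The named genes of mitochondrial transcription and its regulation did not pass the test. Polrmt, the mitochondrial RNA polymerase, was at 45.5 ± 5.38 CPM among wild-type libraries, against 45.7 ± 3.72 CPM among those labelled knockout (SD, n = 5). Its partners Tfam, which packages the genome and starts transcription, and Tfb2m, which opens the promoter, were at 26.6 ± 2.57 and 27.6 ± 0.728 CPM and at 14.5 ± 1.08 and 14.2 ± 0.909 CPM. Lrpprc, which stabilises mitochondrial mRNAs, was at 98.8 ± 6.47 and 92.6 ± 11.2 CPM, and Ppargc1a, a coactivator of mitochondrial biogenesis, at 57.4 ± 6.49 and 62.2 ± 7.56 CPM. These 5 genes had log2 fold changes of 0.01, 0.05, -0.03, -0.09 and 0.12, and adjusted p by edgeR came to 0.986, 0.821, 0.936, 0.675 and 0.650.

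By process, 0 of 10 transcription genes, 0 of 12 genes of transcript cleavage and tRNA maturation, and 0 of 16 genes of mRNA stability and decay were called by edgeR. The counts were likewise 0 of 11 for rRNA modification and ribosome assembly and 0 of 6 for nuclear regulators of mitochondrial content, and 1 of 8 for DNA replication and the nucleoid. Over all tested genes 2.03% were called, so counts in lists this short say little. Median log2 fold changes of the lists ran from -0.03 for cleavage and tRNA maturation to 0.08 for the nuclear regulators.

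The labels name total RNA and the design text mRNA profiles, but no source used here states how RNA classes were selected, on which rRNA and tRNA reads can depend. Values of other structured RNAs without a poly(A) tail are given beside them. Of the 11 such genes in the table, 4 passed the low-count filter, 0 were called by edgeR and 1, Rn7sk, had an unadjusted p below 0.05, where the shares over all tested genes are 2.03% and 13.8%. With so few genes the count says little. Their log2 fold changes ran from -1.21 to -0.16. The summed level of the 11 genes was 7.12 to 20.9 CPM among wild-type libraries, against 4.04 to 14.4 CPM among those labelled knockout. The most abundant, Rn7sk, which encodes the 7SK regulator of transcription elongation, stood at 16.2, 7.11, 14.0, 3.87 and 5.24 CPM over W1 to W5, compared with 7.46, 1.75, 3.59, 3.21 and 3.90 CPM over K1 to K5. Its log2 fold change between the groups was -1.21 ± 0.39 (SE, edgeR adjusted p 0.150). The part of library selection in the rRNA difference was not tested.

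Marker levels of other cell types and of rods stand beside the mitochondrial levels. Of all tested genes, 0.859% were called higher and 1.17% lower, which is the share to set beside these short lists. Among 10 rod markers 1 was called, Sag, the rod arrestin, which fell, and the list's median log2 fold change was -0.0048. Microglia markers had 1 of 8 genes called higher (C1qc), a median of 0.37 and summed levels of 22.3 to 41.1 CPM and 34.9 to 40.3 CPM. Smooth muscle markers had 1 of 5 tested called higher (Lmod1, at a log2 fold change of 1.549), a median of -0.07 and summed levels of 20.8 to 33.5 CPM and 25.7 to 37.9 CPM. Markers of cones, of other retinal neurons, and of Muller glia and astrocytes had 0 called, with medians of 0.07, -0.03 and 0.03. Those of endothelial cells and pericytes, erythroid cells, pigment epithelium and striated muscle also had 0 called, with medians of 0.09, 0.04, 0.11 and -0.69. The 1 lens marker tested was not called, at -0.13. The part of cell composition in the mitochondrial differences was not tested.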

How the data were processed

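Retinal RNA was sequenced in 5 wild-type libraries and 5 labelled as Il6 knockout. The counts, which the authors deposited as whole reads per gene without normalization, were used as they stand. The submitters' processing notes name the build GRCm38.p5 and, in no order, DESeq2 1.14, featureCounts 1.15.2, STAR 2.5.3a, FastQC and bcl2fastq. The deposited log2 fold changes, p-values and mark of significance (0 or 1, another kind of value) come from the authors' knockout over control comparison, per the file headers, and its mean signal of counts divided by size factors was not used.

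Genes were kept with filterByExpr (minimum count 10, minimum total 15), scaled with TMM factors (0.954 to 1.04), and tested with edgeR 4.0.16 by its quasi-likelihood test (glmQLFit, glmQLFTest) on genotype alone. Adjusted p-values are Benjamini-Hochberg over all 18965 genes tested, with calls under 0.05. "Higher" and log2 fold changes are labelled knockout over wild type, and each SE was taken from the fold change and the F statistic. A second fit set library sizes to the mitochondrial reads. Levels per length divide CPM by the length of the row. The Il6 test used log2(CPM + 1). Windows of 100 bases of each member, on both strands, were searched in all GENCODE M21 transcripts of nuclear genes. The textbook anticodon of each tRNA was located where its letters follow a T and precede a purine in the middle of the sequence. Alternatives used limma 3.58.1 and DESeq2 1.42.0. On simulated counts, the level fit called 48% of genes changed by a log2 of 0.5 and 36% of those changed by -0.5. At 1 and -1 it called 84% and 68%. A gene that was not called can therefore still differ by such an amount. The changed genes were drawn at random from tested genes outside the mt- rows, so recovery of the members themselves was not measured. The share fit called 62% and 28% at 0.5 and -0.5. Unchanged genes were called 8 times in the level fit and 41 times in the share fit. Those 41 stand beside 32, 14, 31 and 43 changed genes called at -1, -0.5, 0.5 and 1. Calls of the share fit are therefore less certain than those of the level fit. No pair of libraries agreed within sampling noise. All members were accounted for, and values per library were given for the rRNAs, the called members and the 3 tRNAs and 3 mRNAs with the highest level per length. mt-Nd4l, Rn7sk and the named members outside that rule were chosen after their values were seen. The members, the lists and the tests were chosen with earlier results of these data known.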

Additional observations from a re-analysis of the deposited data

Results flagged for a closer look

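In 70 groups of 5 libraries examined (31 tested members and 4 sums, each in both genotypes), 5 had a library far from the rest, where chance flags about 1 group in 20. In wild type, mt-Nd4l stood at 21.4 CPM in W5 against 3.995 to 6.09 CPM in the other libraries. In the libraries labelled knockout, K4 stood high in mt-Te (10.4 CPM against 5.55 to 6.63), in mt-Tr, an arginine tRNA (2.28 CPM against 1.02 to 1.36), and in the complex I mRNA mt-Nd5 (4487 CPM against 3300.3 to 3601). K5 stood low in the ATP synthase mRNA mt-Atp8, at 4.43 CPM against 6.02 to 6.48 CPM.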

How the results depend on the processing

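The count of members called was 3, and it was 6 with DESeq2 and 1 to 3 when 1 library was left out. It was 1, mt-Rnr2, without W1, W4, K2, K4 or K5. Tested as shares, the count was 0, and 1 with DESeq2. The count of machinery genes called was 1, and it was 0 with limma-voom, 0 without W5 and K5 together, and 0 to 1 when 1 library was left out. Log2 differences of the summed rRNA, tRNA and mRNA levels ran from 0.52 to 0.63, from 0.32 to 0.45 and from 0.10 to 0.23 over 12 alternatives each, 2 of them other scalings. Of the members named by rule, mt-Co1 ran from -0.00034 to 0.17 in level when 1 library was left out. The share of mt-Cytb had a log2 difference of 0.021 over mitochondrial mRNA reads and 0.014 over mitochondrial reads without mt-Rnr2, against -0.02 over all. That of mt-Tp ran from -0.10 to 0.077 when 1 library was left out. The causes were not tested. Depth limits the tRNA rows, with at most 799 reads in a library. No paired analysis was possible because the labels carry no replicate numbers shared by the groups.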
